A study of Rattus norvegicus with 15 samples.

Results

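The 10 genes described here are the steroid receptors *Nr3c1* and *Nr3c2* and 8 genes known to be induced through them, *Fkbp5*, *Sgk1*, *Tsc22d3*, *Ddit4*, *Zbtb16*, *Klf9*, *Nfkbia* and *Cdkn1a*. They were taken by gene symbol from 14506 genes measured in the inferior colliculus (IC), the midbrain relay of hearing, of rats with and without audiogenic seizures. Each had 1 probe set on the array, so no choice between probe sets was needed. The Wistar Audiogenic Rat (WAR) is a strain selected for seizures evoked by loud sound, and Wistar albino rats served as its control. By the labels, 5 arrays came from WAR rats exposed to sound (WAR S), 2 from Wistar rats exposed to the same sound (Wistar S), 4 from naïve WAR rats (WAR N) and 4 from naïve Wistar rats (Wistar N). All rats were males of 12 weeks, both sides of the IC were used, and tissue of the stimulated groups was taken after 60 min. WAR rats came from a medical school colony and Wistar rats from a commercial supplier by the labels, so strain and supplier cannot be told apart. Whether the RNA of each array came from a single rat is not stated in the sources used here.

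Glucocorticoid hormone, released from the adrenal gland during stress, enters cells and binds the glucocorticoid receptor or the mineralocorticoid receptor, which then act on DNA as transcription factors. Their target genes include brakes on the receptor itself, inhibitors of inflammatory signalling, and enzymes and regulators that save energy and limit growth. In the brain these targets respond within the first hour or hours of stress, in neurons, glia and blood vessels alike, and several also respond to neuronal activity, hypoxia or DNA damage.

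Values are log2 levels from the multi-array procedure RMA, and a difference of 1 is a doubling. Levels were compared between arrays for 1 gene at a time and never between genes. Within pairs of stimulated arrays, 2675 to 3286 probe sets held identical values, against 2 to 13 within pairs of naïve arrays and 0 between a stimulated and a naïve array, so the conditions were taken as normalised separately and no WAR S array was set against a WAR N array. The array medians lay between 7.21 and 7.27 for WAR S, between 7.21 and 7.22 for Wistar S, between 7.08 and 7.14 for WAR N and between 7.01 and 7.08 for Wistar N. One array stood apart: Wistar N 1 deviated from its group by a median of 0.193 over all genes, against 0.0321 to 0.133 for the other 14 arrays. The sample labels also carry running numbers. Those of WAR S 1, 2 and 5, Wistar S 1 and 2, WAR N 1 and 2 and Wistar N 1 and 4 follow on from each other (label set 1), and those of WAR S 3 and 4, WAR N 3 and 4 and Wistar N 2 and 3 do not (label set 2). The label of Wistar N 4 has a different form, so its place in label set 1 is uncertain. What the numbers stand for is not given, and Wistar S lies wholly in label set 1. The number of arrays, the 2 of Wistar S first of all, limits the precision.

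The first question was whether the 10 genes differed between the strains after sound. None passed an adjusted p of 0.05 in the comparison of WAR S with Wistar S (limma, Benjamini-Hochberg over all genes), whereas 60 of 14506 genes did (0.414%). Of the 10, 9 had a higher mean in WAR S, 3 had an unadjusted p under 0.05 (*Cdkn1a*, *Nfkbia* and *Klf9*; 6.85% of all genes had), and their median difference was 0.24, against 0.01 over all genes. In 6 of them every WAR S array lay above both Wistar S arrays, a pattern that 12.4% of all genes showed. With array weights, which let noisy arrays count less, 4 of the 10 passed (*Cdkn1a*, *Klf9*, *Nfkbia* and *Tsc22d3*), as did 1433 of all genes (9.88%). In naïve rats 0 of the 10 passed and 0 had an unadjusted p under 0.05, although 20.9% of all genes were called and 34.5% had such a p, and in 0 of the 10 did the groups separate (7.93% of all genes had WAR N wholly above Wistar N). The median difference of the 10 in naïve rats was 0.05, against 0.02 over all genes.

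**Figure D1:**
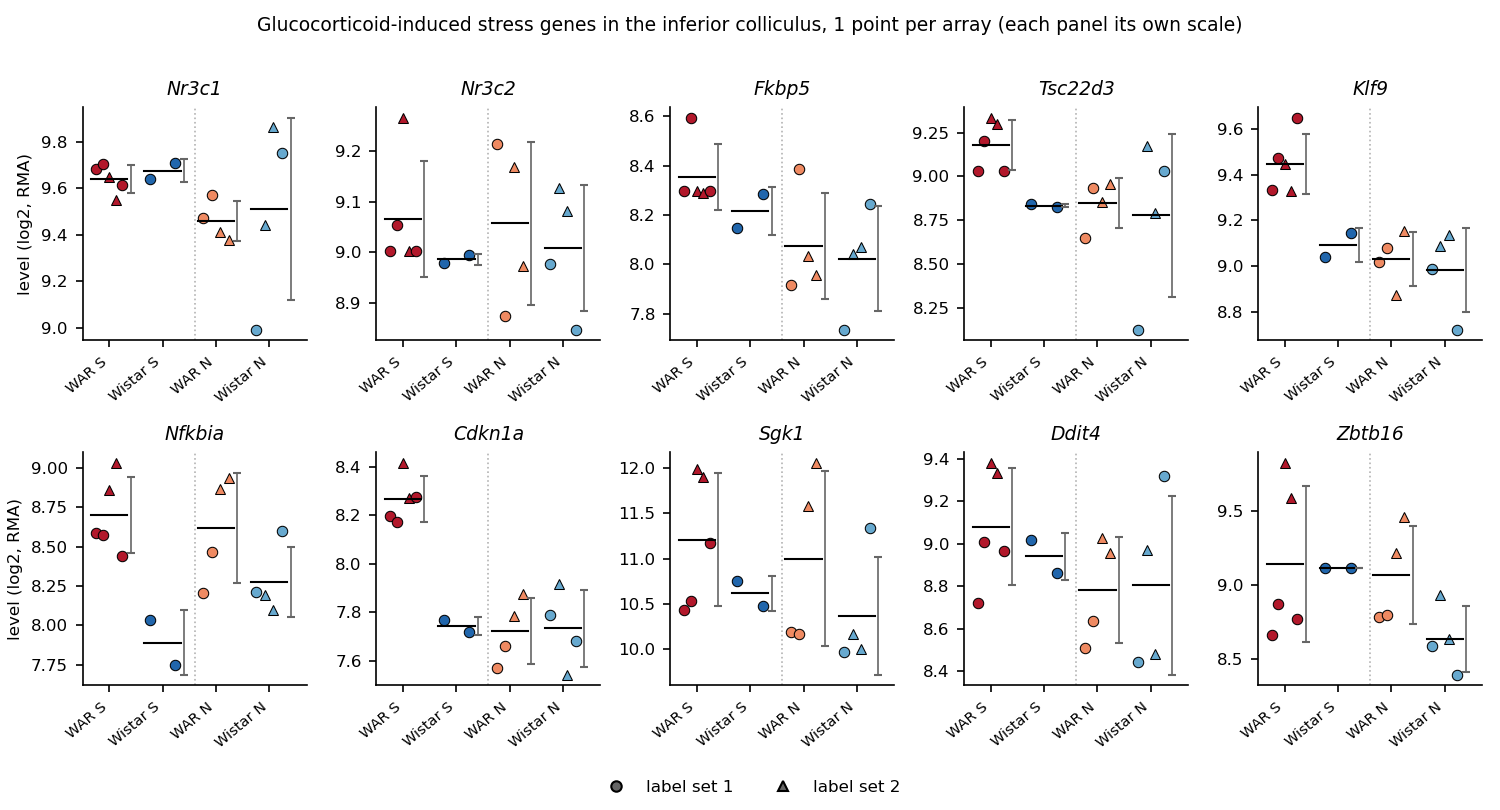
Level of each of the 10 genes (log2, RMA) on every array, by group, with a circle for label set 1, a triangle for label set 2, a bar at the group mean and a whisker of 1 SD beside it. The points of *Cdkn1a*, *Nfkbia*, *Klf9* and *Tsc22d3* in WAR S lie above both Wistar S points, and *Sgk1* spreads from 10.43 to 12.00 within WAR S alone.

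The receptors themselves showed no strain difference that passed the test. *Nr3c1*, the glucocorticoid receptor, read 9.69, 9.70, 9.65, 9.55 and 9.62 in WAR S and 9.64 and 9.71 in Wistar S. In naïve rats it read 9.47, 9.57, 9.41 and 9.38 in WAR N and 8.99, 9.44, 9.87 and 9.75 in Wistar N. The groups overlapped in both conditions, and the lowest value belonged to Wistar N 1. The difference was −0.03 after sound (95% interval −0.39 to 0.32, adjusted p = 1 from limma) and −0.05 in naïve rats (−0.36 to 0.25, adjusted p = 0.825). Without Wistar N 1 the naïve difference was −0.23 (adjusted p = 0.0554), and leaving out Wistar N 3 turned it to 0.06.

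*Nr3c2*, the mineralocorticoid receptor, which has the higher affinity for the hormone, read 9.00, 9.05, 9.26, 9.00 and 9.00 in WAR S and 8.98 and 8.99 in Wistar S. WAR S lay wholly above Wistar S, but by 0.08 on average (95% interval −0.15 to 0.31, adjusted p = 1), and 3 of the WAR S values were identical to 4 decimals. Naïve rats gave 9.21, 8.87, 9.17 and 8.97 in WAR N and 8.98, 9.13, 9.08 and 8.85 in Wistar N, with full overlap and a difference of 0.05 (−0.15 to 0.24, adjusted p = 0.745).

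*Fkbp5* encodes a partner protein of Hsp90 that lowers the receptor's affinity for hormone and is induced by the receptor, closing a feedback loop. It read 8.30, 8.59, 8.30, 8.29 and 8.30 in WAR S and 8.15 and 8.28 in Wistar S. Only WAR S 2 stood clear of the others, and the margin between the lowest WAR S array and the highest Wistar S array was a small part of that gap. The difference was 0.14 after sound (95% interval −0.17 to 0.45, adjusted p = 1) and 0.05 in naïve rats (−0.21 to 0.31, adjusted p = 0.805). Naïve values were 7.92, 8.39, 8.04 and 7.96 in WAR N and 7.73, 8.04, 8.07 and 8.25 in Wistar N, and the groups overlapped.

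*Tsc22d3* encodes GILZ, a leucine zipper protein through which glucocorticoids dampen inflammatory transcription. It read 9.03, 9.20, 9.33, 9.30 and 9.03 in WAR S and 8.84 and 8.83 in Wistar S, with no overlap and a mean difference of 0.35 (SE 0.205, 95% interval −0.09 to 0.79, adjusted p = 0.981). This separation is the most extreme of the 21 possible splits of the 7 arrays (exact permutation test, two-sided, p = 0.0476, the smallest the design allows). In naïve rats it read 8.65, 8.93, 8.86 and 8.96 in WAR N and 8.12, 9.17, 8.79 and 9.03 in Wistar N. Wistar N 1 was the lowest by a wide margin, the groups overlapped, and the difference of 0.07 (adjusted p = 0.818) became −0.15 without that array (adjusted p = 0.289).

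The sequence upstream of *Tsc22d3* is shown because the gene is a direct target of the receptor in mammals. Windows of 250 bases before to 50 bases after a start site were available from RefSeq (GRCr8) for 8 of the 10 genes, 13 windows in all. They were searched for the core of the glucocorticoid response element, ACANNNTGT, which reads the same on both strands in its fixed letters. It occurred in 1 of the 13 and in 6.86% of 33469 rat windows of that length. The 1 was the second of 3 windows of *Tsc22d3*, whose other windows held no match. The stretch below, chrX:109065585-109065633 on the minus strand, covers positions −203 to −155 from the start site of that window, with the match in capitals.
Tsc22d3: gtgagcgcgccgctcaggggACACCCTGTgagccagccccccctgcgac
A match describes these letters only. The full cAMP response element, TGACGTCA, occurred in 0 of the 13 windows and in 1.83% of all windows, and the windows are too short to hold distant enhancers.

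*Klf9* encodes a Krüppel-like factor that represses other receptor targets and is induced in neurons by corticosterone. It read 9.33, 9.47, 9.45, 9.33 and 9.65 in WAR S and 9.04 and 9.14 in Wistar S. WAR S lay wholly above Wistar S, by 0.35 (SE 0.118, 95% interval 0.10 to 0.61, unadjusted p = 0.0093, adjusted p = 0.368; exact permutation p = 0.0476). Naïve rats gave 9.02, 9.08, 8.87 and 9.15 in WAR N and 8.99, 9.09, 9.14 and 8.72 in Wistar N, with overlap and a difference of 0.05 (−0.16 to 0.26, adjusted p = 0.772).

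*Nfkbia* encodes IκBα, which holds NF-κB in the cytoplasm and is induced by glucocorticoid as well as by NF-κB itself. It read 8.59, 8.57, 8.86, 9.03 and 8.44 in WAR S and 8.04 and 7.75 in Wistar S. Every WAR S array lay at least 0.4 above the higher Wistar S array, and the mean difference of 0.81 was the widest of the 10 after sound (SE 0.204, 95% interval 0.37 to 1.25, unadjusted p = 0.00143, adjusted p = 0.138; exact permutation p = 0.0476). In naïve rats it read 8.20, 8.46, 8.87 and 8.94 in WAR N and 8.21, 8.19, 8.10 and 8.60 in Wistar N. WAR N 3 and 4 lay above all Wistar N arrays and WAR N 1 and 2 did not, so the difference of 0.34 did not pass (95% interval −0.03 to 0.71, adjusted p = 0.178). Averaged over both conditions, *Nfkbia* was higher in WAR by 0.58 (SE 0.134, adjusted p = 0.0166), a call lost without Wistar S 2 (0.50, adjusted p = 0.132) and within label set 1 (0.29, adjusted p = 0.265).

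An NF-κB site was searched in the same windows, since *Nfkbia* is known as a target of NF-κB. The search used a degenerate consensus pattern, in which several positions allow more than 1 base, on both strands. It occurred in 1 of the 13 windows, that of *Nfkbia*, and in 7.51% of all windows. The stretch, chr6:78597074-78597123 on the minus strand, spans −51 to −2 from the start site.
Nfkbia: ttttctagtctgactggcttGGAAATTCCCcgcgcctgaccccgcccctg
The capitals mark the match, which begins 31 bases before the start site.

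*Cdkn1a* encodes p21, an inhibitor of cyclin-dependent kinases that is induced by p53 and also by glucocorticoid. It read 8.19, 8.17, 8.42, 8.27 and 8.27 in WAR S and 7.77 and 7.72 in Wistar S, with the WAR S arrays close to one another and far from both Wistar S arrays. The difference was 0.52 (SE 0.106, 95% interval 0.29 to 0.75, unadjusted p = 0.000226) and missed the threshold by little (adjusted p = 0.0504). Fitted on the 4 groups' shared spread it was not called, and in a model of the stimulated arrays alone it was (adjusted p = 0.0249). Naïve rats gave 7.57, 7.66, 7.79 and 7.88 in WAR N and 7.79, 7.92, 7.54 and 7.68 in Wistar N, with overlap and a difference of −0.01 (−0.20 to 0.18, adjusted p = 0.948).

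The difference of the strain effects, that after sound minus that in naïve rats, was tested in the same fit. It passed in 0 of the 10 genes and in 15 of all genes (0.103%), and 1 of the 10 had an unadjusted p under 0.05, as had 15.0% of all genes. This was *Cdkn1a*, with 0.53 (SE 0.139, 95% interval 0.23 to 0.83, unadjusted p = 0.00184, adjusted p = 0.124). Without Wistar N 1 it passed (0.51, adjusted p = 0.0199), as did *Tsc22d3* (0.50, adjusted p = 0.0398), while the count over all genes was 2956 (20.4%). *Nfkbia* (0.46, adjusted p = 0.434) and *Klf9* (0.31, adjusted p = 0.370) did not pass. For the mean strain effect 2 of the 10 were called, both higher in WAR, where 9.99% of all genes were called and 5.87% were called higher. These were *Nfkbia* and *Cdkn1a* (0.26, SE 0.070, adjusted p = 0.0343), and the call of *Cdkn1a* was lost in 9 of the 15 fits that left out 1 array, namely WAR S 3, 4 or 5, Wistar S 1 or 2, WAR N 3 or 4, or Wistar N 3 or 4 (adjusted p = 0.0537 to 0.171). With either Wistar S array left out, the comparison rests on 1 stimulated control array that is assumed to vary like the other groups. For *Cdkn1a* the mean combines 0.52 after sound with −0.01 in naïve rats, so it does not stand for a difference seen in both conditions.

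**Figure D2:**
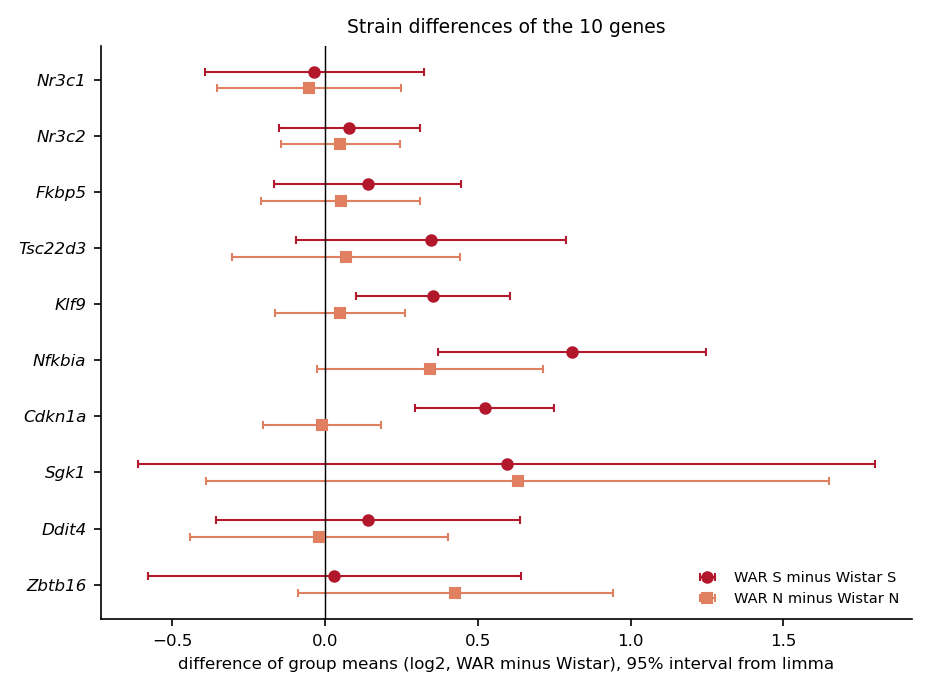
Difference of group means (log2, WAR minus Wistar) for each of the 10 genes with its 95% interval from limma, after sound (circles, above) and in naïve rats (squares, below). After sound the intervals of *Klf9*, *Nfkbia* and *Cdkn1a* lie above 0, whereas in naïve rats all 10 intervals include 0.

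*Sgk1*, *Zbtb16* and *Ddit4* had the largest SD within groups of the 10 genes (0.758, 0.378 and 0.306). They spread over a wider range within WAR S, and within WAR N, than their strain means differed. The same held for *Nr3c1*, *Nr3c2* and *Fkbp5*, whose differences were small. *Sgk1* encodes a kinase that regulates ion channels and transporters and is among the fastest targets of both receptors. It read 10.43, 10.53, 12.00, 11.91 and 11.17 in WAR S and 10.75 and 10.47 in Wistar S. It read 10.18, 10.17, 11.58 and 12.06 in WAR N and 9.97, 10.17, 9.996 and 11.34 in Wistar N. In both WAR groups replicates 3 and 4 were the highest, more than 2-fold above replicates 1 and 2, and among Wistar N arrays number 4 stood alone. Its SD within groups, 0.758 (11 degrees of freedom), ranked 9 of 14506 genes, whose median SD was 0.156. The strain difference was accordingly uncertain, 0.59 after sound (SE 0.563, 95% interval −0.61 to 1.80, adjusted p = 1) and 0.63 in naïve rats (SE 0.476, −0.39 to 1.65, adjusted p = 0.375).

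*Ddit4* encodes REDD1, an inhibitor of mTORC1 signalling induced by stress, hypoxia and hormone. It read 8.72, 9.01, 9.38, 9.33 and 8.96 in WAR S and 9.02 and 8.86 in Wistar S, and 8.51, 8.64, 9.02 and 8.96 in WAR N and 8.44, 8.97, 8.48 and 9.32 in Wistar N. The arrays high in *Sgk1* were again high, with Wistar N 2 added, and the groups overlapped in both conditions. The differences were 0.14 (95% interval −0.36 to 0.64, adjusted p = 1) after sound and −0.02 (−0.44 to 0.40, adjusted p = 0.952) in naïve rats.

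*Zbtb16* encodes the zinc finger repressor PLZF, strongly induced by glucocorticoid in many human cell types. It read 8.66, 8.87, 9.82, 9.58 and 8.77 in WAR S, and 9.11 in both Wistar S arrays, where the values were identical. WAR S arrays thus lay on both sides of Wistar S, 3 and 4 above and the other 3 below, and the mean difference was 0.03 (95% interval −0.58 to 0.64, adjusted p = 1). In naïve rats it read 8.79, 8.80, 9.21 and 9.46 in WAR N and 8.59, 8.94, 8.63 and 8.40 in Wistar N, with overlap through Wistar N 2 alone. The naïve difference was 0.43 (SE 0.241, −0.09 to 0.94, adjusted p = 0.230), and it passed with label set as a block (0.43, adjusted p = 0.0309), where 22.0% of all genes were called.

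Since the same replicates were high, each gene was also fitted with label set as a block. Arrays of label set 2 were higher than those of label set 1 by 0.80 for *Sgk1* (SE 0.322, unadjusted p = 0.0271, adjusted p = 0.339) and by 0.61 for *Zbtb16* (SE 0.102, adjusted p = 0.0511, rank 12 of 14506). The other 8 had an unadjusted p over 0.05, and 0 genes passed over the whole array (smallest adjusted p = 0.0511), with 1785 at an unadjusted p under 0.05 (12.3%). The contrast was not alike in the groups. For *Sgk1* it was 1.24 within WAR S and 1.64 within WAR N, but −0.57 within Wistar N, where the high array belongs to label set 1. For *Zbtb16* it was 0.93 within WAR S, 0.54 within WAR N and 0.29 within Wistar N.

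The naïve strain difference was also fitted within each label set, and the sets were not tested against each other. Within label set 2, WAR N 3 and 4 exceeded Wistar N 2 and 3 by 1.74 for *Sgk1* (adjusted p = 0.00113), 0.76 for *Nfkbia* (adjusted p = 0.00349) and 0.55 for *Zbtb16* (adjusted p = 0.0376), in a fit that called 26.0% of all genes. Within label set 1, WAR N 1 and 2 against Wistar N 1 and 4 gave −0.48 for *Sgk1* (adjusted p = 0.645), −0.07 for *Nfkbia* (adjusted p = 0.881) and 0.30 for *Zbtb16* (adjusted p = 0.189), with 1.5% of all genes called. With Wistar N 4 placed in label set 2 instead, a choice made after seeing the data, the limma block fit called 19.8% of all genes. It gave 0.93 for *Sgk1* (adjusted p = 0.0393), 0.44 for *Nfkbia* (adjusted p = 0.028) and 0.57 for *Zbtb16* (adjusted p = 0.0231). After sound only label set 1 holds both strains. There *Nfkbia* differed by 0.64 (adjusted p = 0.272), *Cdkn1a* by 0.47 (adjusted p = 0.124), *Klf9* by 0.39 (adjusted p = 0.453) and *Sgk1* by 0.10 (adjusted p = 1), while *Zbtb16* was −0.34 (adjusted p = 0.348).

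**Figure D3:**
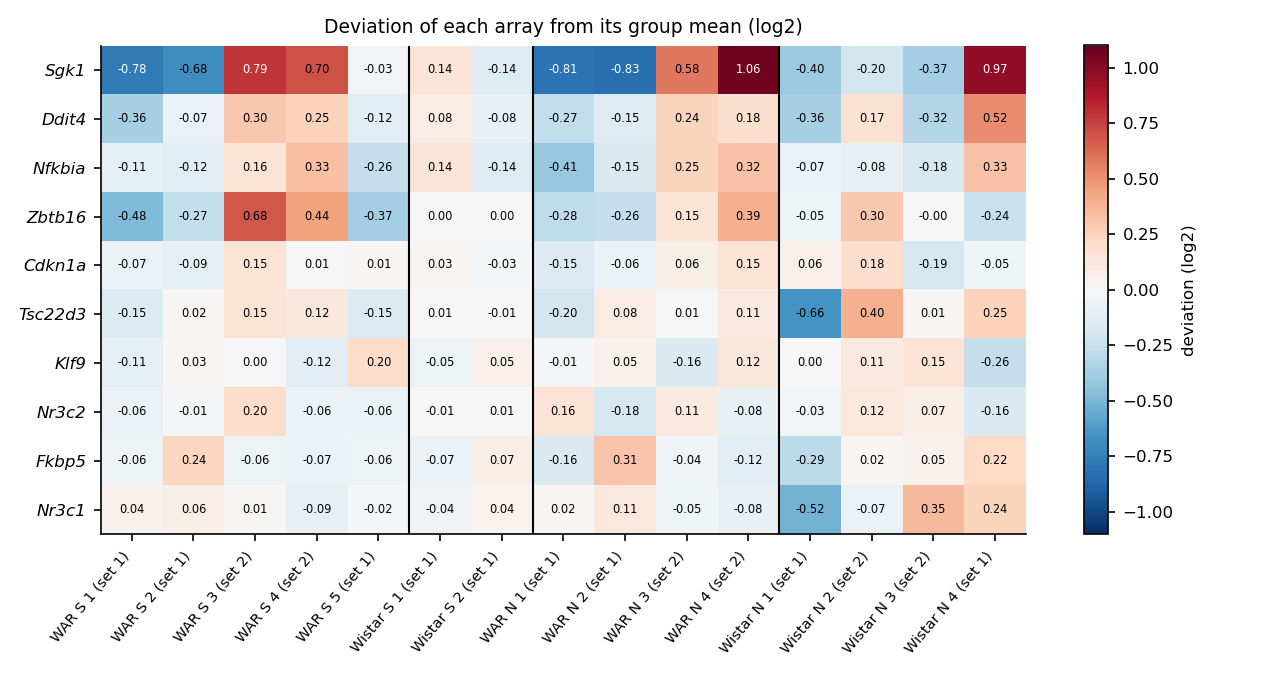
Deviation of each array from its group mean (log2, colour and printed value) for the 10 genes in rows and the 15 arrays in columns, with the label set in brackets and lines between groups. *Sgk1* deviates by 0.58 to 1.06 in WAR S 3 and 4, WAR N 3 and 4 and Wistar N 4, and *Tsc22d3* and *Nr3c1* are lowest in Wistar N 1.

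Covariation across arrays was read within each condition. Pairs with *Cdkn1a* in stimulated rats and with *Sgk1* in naïve rats were left out, because the arrays there fell into separate clusters (5 WAR S against 2 Wistar S arrays, and 3 high against 5 low arrays), which left 36 pairs in each condition. Both strains were pooled in each r and its permutations, so strain differences enter them. Across the 7 stimulated arrays the median Pearson r was 0.43, with 26 of 36 pairs above 0 and 4 at 0.8 or more (11.1%, against 2.997% of all gene pairs). This median was 0.19 with the strain means removed, and the median over all gene pairs, strains pooled, was 0.025. Across the 8 naïve arrays the median was 0.19, with 21 of 36 above 0 and 0 at 0.8 or more (4.05% of all gene pairs). It was 0.17 with the strain means removed, and the median over all gene pairs was 0.022. No pair passed after adjustment over its 36 (exact permutation of the pairings), and 6 stimulated pairs and 1 naïve pair had an unadjusted p under 0.05.

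The closest pair after sound was *Tsc22d3* with *Nfkbia*, both dampers of inflammatory transcription (r = 0.937, rho = 0.901, exact p = 0.00357 for r and 0.00952 for rho, adjusted p = 0.105 and 0.148). Its r was 0.886 without the 2 arrays farthest from the median of *Tsc22d3*, WAR S 3 and 4. The WAR S arrays left still lay above both Wistar S arrays in both genes, so this r cannot show covariation within a strain. The r of the pair was 0.79 with the strain means removed and 0.16 with the means of strain and label set removed. *Sgk1* with *Ddit4* followed (r = 0.919, rho = 0.893, exact p = 0.00774 and 0.0123, adjusted p = 0.105 and 0.148). Next came *Ddit4* with *Zbtb16* (r = 0.909, rho = 0.847, exact p = 0.00873 and 0.0238, adjusted p = 0.105 and 0.171) and *Sgk1* with *Zbtb16* (r = 0.832, rho = 0.721, exact p = 0.0262 and 0.0770, adjusted p = 0.236 and 0.343). Those 3 pairs rested on WAR S 3 and 4, as r without the 2 farthest arrays was 0.50, 0.48 and −0.11. *Nr3c1* ran the other way to *Sgk1* (r = −0.755, rho = −0.679, exact p = 0.0488 and 0.110, adjusted p = 0.293 and 0.343, r = −0.53 without the 2 farthest arrays).

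In naïve rats the closest pair was *Nr3c1* with *Fkbp5*, the receptor and its feedback partner (r = 0.701, rho = 0.762, exact p = 0.0535 and 0.0368, adjusted p = 0.591 and 0.550, r = 0.71 without the 2 farthest arrays). *Tsc22d3* with *Ddit4* followed (r = 0.685, rho = 0.786, exact p = 0.0435 and 0.0279, adjusted p = 0.591 and 0.550, r = 0.76 without the 2 farthest arrays). Without Wistar N 1 the median r over the naïve pairs was −0.0022, and with the means of strain and label set removed it was −0.08.

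**Figure D4:**
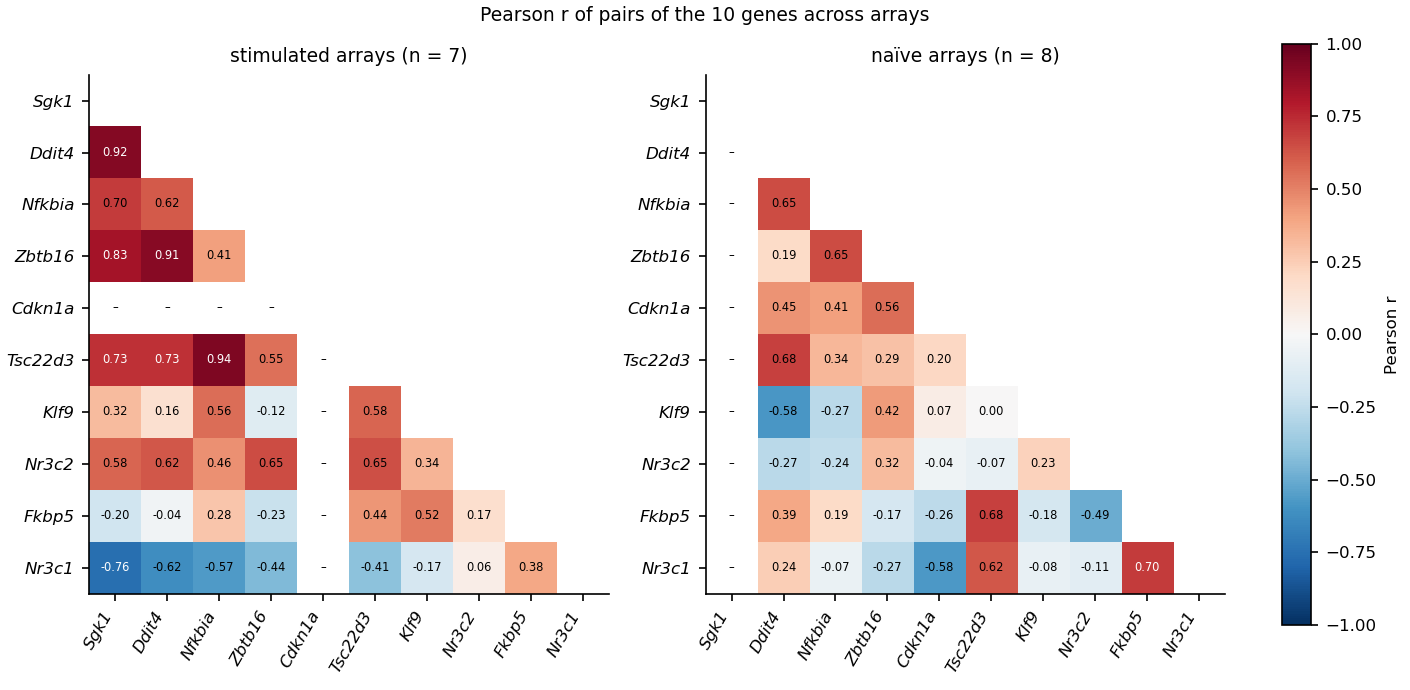
Pearson r of each pair of the 10 genes across the 7 stimulated arrays (left) and the 8 naïve arrays (right), with a dash where arrays fell into separate clusters and no r is given. After sound *Sgk1*, *Ddit4*, *Nfkbia*, *Zbtb16* and *Tsc22d3* form a block of positive values and *Nr3c1* is negative with each of them.

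Over all 15 arrays, with the group mean removed from each value, the genes most like a given gene were ranked as a description with no test. The arrays share label sets, group sizes are small, and every r with *Sgk1* draws on the 5 arrays high in it (WAR S 3 and 4, WAR N 3 and 4 and Wistar N 4). For *Sgk1* they were *Pdk4* (r = 0.955), which encodes a kinase that spares glucose by shutting off pyruvate dehydrogenase, *Chchd1* (0.926), a mitochondrial ribosome gene, and *Ctsz* (0.915), a lysosomal protease. Among the 10, *Nfkbia* ranked 7 (0.880) and *Ddit4* ranked 16 (0.852) of 14505 genes in likeness to *Sgk1*, while *Fkbp5* was unlike it (−0.13). Over the 10 arrays left without those 5, a choice made after seeing the data, r with *Sgk1* was 0.79 for *Pdk4*, 0.69 for *Chchd1*, 0.43 for *Ctsz*, 0.47 for *Ddit4* and −0.12 for *Nfkbia*. *Ddit4* was most like *Mt3*, a brain metallothionein (0.919), *Pbld1* (0.903) and *Chchd1* (0.902). *Tsc22d3* was most like *Spock3*, a matrix proteoglycan (0.942), *Cdkn1c*, a cell cycle inhibitor (0.940), and *Ptpn11*, a phosphatase (0.936). For *Fkbp5* the genes were *Rad17* (0.923), *Rrp9* (0.908) and *Gtpbp10* (0.907), which serve DNA repair, ribosomal RNA processing and mitochondria. *Tsc22d3*, *Fkbp5* and all the genes named for them had their lowest Wistar N value in Wistar N 1. *Spock3* read 9.38 there, against 10.16 to 10.40 in the other Wistar N arrays, and *Rad17* read 6.79, against 7.50 to 7.90. *Cdkn1c* read an identical 6.5445 in every stimulated array but WAR S 5. These likenesses were not ranked without Wistar N 1.

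*Pdk4* is itself induced by glucocorticoid. It read 8.18, 8.11, 9.77, 9.62 and 8.49 in WAR S and 8.49 and 8.34 in Wistar S, and 7.74, 7.77, 9.16 and 9.19 in WAR N and 7.08, 7.29, 6.86 and 7.82 in Wistar N. Replicates 3 and 4 were again the highest of both WAR groups and number 4 the highest of Wistar N. Of 30 other glucocorticoid-induced genes measured, 6 had r of 0.7 or more with *Sgk1*, as had 1.04% of all genes. The list's median r was 0.42, against −0.05 over all genes, and without the 5 arrays high in *Sgk1* it was 0.16 against −0.04, with 2 of the 30 at 0.7 or more (1.12% of all genes). The 6, singled out after their values were seen, were *Pdk4*, *Plekhf1*, *Klf15*, *Bcl6*, *Errfi1* and *Arrdc2*. Others of the 30 ran the other way, the lowest being *Gjb6* (−0.56), *Mt1* (−0.48) and *Lcn2* (−0.43), and 0 had r of −0.7 or less. Cell type lists had a median r with *Sgk1* from −0.30 (neuron markers) to 0.19 (microglia markers).

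**Figure D5:**
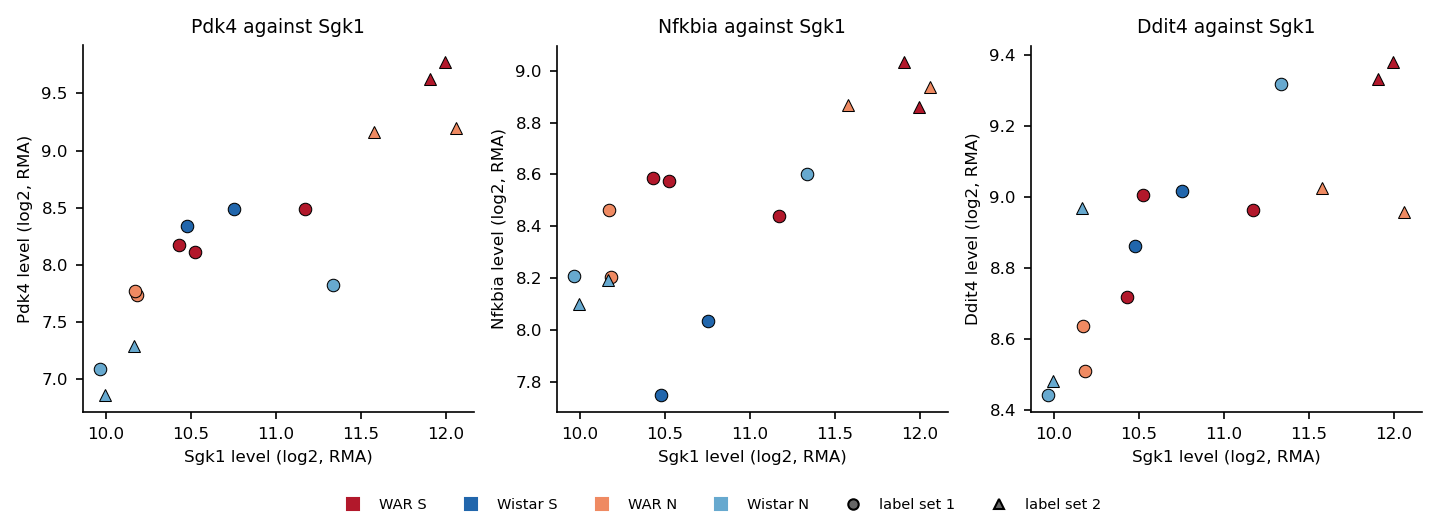
Level of *Pdk4* (left), *Nfkbia* (middle) and *Ddit4* (right) against that of *Sgk1* on each array (log2, RMA), coloured by group, with a circle for label set 1 and a triangle for label set 2. Stimulated and naïve arrays were normalised separately, so the pattern is to be read within a condition, where WAR S 3 and 4 and WAR N 3 and 4 are high in every panel. Wistar N 4, at 11.34 for *Sgk1*, is the highest naïve array for *Ddit4* but at 7.82 for *Pdk4* lies beside WAR N 1 and 2 (7.74 and 7.77).

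Other genes of the pathway were read as lists. After sound, 0 of 30 other induced genes, 0 of 21 genes of the receptor complex and hormone access, 0 of 14 genes repressed by glucocorticoid, 0 of 19 SGK and mTORC1 control genes, 0 of 12 NF-κB family genes, 0 of 17 p53 targets and 0 of 23 hypoxia and unfolded protein genes passed the test (limma). At an unadjusted p under 0.05 there were 8 of the other induced genes, 1 of the receptor complex, 0 of the repressed genes, 3 of the SGK and mTORC1 genes, 0 of the NF-κB family, 5 of the p53 targets and 1 of the hypoxia and unfolded protein genes, against 6.85% of all genes. Of 23 relatives of *Tsc22d3*, *Klf9* and *Zbtb16*, 1 was higher in WAR S, the Krüppel-like factor gene *Klf10* (0.76, adjusted p = 0.0466), a call lost in each of the 7 fits that left out 1 stimulated array (adjusted p = 0.0568 to 0.572). *Mt1*, a metallothionein gene induced by glucocorticoid and metals, read 10.77 to 11.82 in WAR S and 10.03 and 9.35 in Wistar S, and its difference of 1.69 just missed (SE 0.346, adjusted p = 0.0504). *Pik3r1*, a regulatory subunit of PI3-kinase, differed by 0.43 (adjusted p = 0.199) and *Il1r1*, the interleukin-1 receptor gene, by 0.47 (adjusted p = 0.304), and neither passed. *Txnip*, next by p, ran the other way (−0.41, adjusted p = 0.508). Without sound, *Mt1*, *Pik3r1* and *Il1r1* were called higher in WAR N, by 1.30, 0.43 and 0.63 (adjusted p = 0.00748, 0.00857 and 0.00414, limma). *Txnip* was lower there and did not pass (−0.36, adjusted p = 0.069). After sound 20 of the 30 other induced genes had a higher mean in WAR S, and their median difference was 0.12, against 0.01 over all genes.

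In naïve rats 10 of the 30 other induced genes passed, 7 higher and 3 lower in WAR N (33.3%, against 20.9% of all genes, of which 11.6% were higher and 9.38% lower). *Mt2A*, a metallothionein gene, was higher by 1.996 (SE 0.361, adjusted p = 0.0026), *Hif3a*, a brake on the hypoxia response, by 0.88 (adjusted p = 0.000882) and *Sult1a1*, a sulfotransferase gene, by 0.89 (adjusted p = 0.00145), while *Rhob*, a small GTPase gene, was lower (−0.94, adjusted p = 0.00113). *Mt2A* read 13.06 to 13.22 in WAR N and 12.76, 10.81, 10.53 and 10.61 in Wistar N, so Wistar N 1 lay near the WAR N arrays. Without Wistar N 1 the counts of this list were 12 higher and 4 lower, in a fit that called 41.1% of all genes. Within label set 1 they were 0 higher and 1 lower, where 1.5% of all genes were called. The list therefore held genes that moved either way, and the share of its genes called was above that of all genes by a margin that was not tested.

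Of 21 genes of the receptor complex and hormone access, 6 were lower and 1 higher in WAR N, and 14 did not pass. That is 33.3% called, against 20.9% of all genes (9.38% lower and 11.6% higher), a margin that was not tested. Without Wistar N 1 there were 10 lower and 3 higher, in a fit that called 41.1% of all genes. Within label set 1, 0 were lower and 0 higher, where 1.5% of all genes were called. *Hsp90ab1*, the chaperone that holds the receptor ready for hormone, was lower in WAR N (−0.72, adjusted p = 0.000414). So were *Stip1*, which links it to Hsp70 while the receptor is loaded (−0.54, adjusted p = 0.00114), *Fkbp4*, which helps carry the bound receptor toward the nucleus (−0.56, adjusted p = 0.00233), and *Stub1*, a ubiquitin ligase of the same chaperones (−0.42, adjusted p = 0.00369). The steroid enzyme gene *Hsd11b1* was also among those lower in WAR N (−0.48, adjusted p = 0.0254). It had the smallest p of the list after sound, where it was lower in WAR S but did not pass (−0.42, unadjusted p = 0.0225, adjusted p = 0.534, limma). The median of the list in naïve rats was −0.04, against 0.02 over all genes.

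The remaining lists were read in the same way in naïve rats, where 20.9% of all genes were called. All of them but the p53 targets had a share called below or close to that. Of genes repressed by glucocorticoid, 1 of 14 was lower (*Vcam1*, an adhesion molecule of vessels, −0.86, adjusted p = 0.0206), a call lost without WAR N 1 or 3 or Wistar N 3 or 4 (adjusted p = 0.0514 to 0.0719). Of SGK and mTORC1 control genes, 1 of 19 was higher (*Eif4ebp1*, a translation repressor, 0.48, adjusted p = 0.00952) and 1 lower (*Mtor*, the kinase that *Ddit4* restrains, −0.49, adjusted p = 0.00733). Of 12 NF-κB family genes, *Traf6*, a signalling adaptor, was higher (0.27, adjusted p = 0.0376) and *Tnip1*, an inhibitor, lower (−0.44, adjusted p = 0.0231). The call of *Traf6* was lost without WAR N 1, 2 or 4 or Wistar N 2 or 4 (adjusted p = 0.0581 to 0.109), and that of *Tnip1* without WAR N 1 or 2 or Wistar N 2 (adjusted p = 0.0508 to 0.0746). Of 17 p53 targets, 4 were higher, among them *Tp53inp1* (0.75, adjusted p = 0.00138), and 2 lower, among them *Gadd45a* (−1.32, adjusted p = 0.0123), both known as stress-response genes. With WAR N 1 or Wistar N 3 left out, 1 p53 target was higher and 1 lower. Of hypoxia and unfolded protein genes 2 of 23 were higher and 3 lower, and of the relatives 1 of 23 was higher and 4 lower. Without Wistar N 1 the SGK and mTORC1 list had 8 higher and 2 lower, and the NF-κB list 4 higher and 2 lower, against 41.1% of all genes called.

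Markers of some cell types differed between the strains, and their part in the values above was not tested. Their counts stand against 0.414% of all genes called after sound and 20.9% in naïve rats. At an unadjusted p under 0.05 after sound (limma) were 12 of 19 endothelial and 3 of 13 microglia markers, against 6.85% of all genes. Endothelial markers had a higher mean in WAR in 19 of 19 genes in both conditions, with 2 called after sound (*Abcb1a* and *Tek*, a transporter and a receptor of vessels) and 9 in naïve rats (16 without Wistar N 1, where 41.1% of all genes were called). Neither call after sound held without Wistar S 1 or without Wistar S 2 (adjusted p = 0.133 to 0.491). Their mean level was 7.62 to 8.02 in WAR S and 7.15 to 7.18 in Wistar S, and 7.56 to 8.00 in WAR N, against 6.95 to 7.76 in Wistar N. Of 15 astrocyte markers, 14 had a lower mean in WAR S (0 called, 5 at an unadjusted p under 0.05) and 7 were called lower in WAR N. Their mean level was 10.89 to 11.08 in WAR S and 11.26 to 11.30 in Wistar S, and 10.66 to 10.87 in WAR N, against 11.03 to 11.23 in Wistar N. Of 13 microglia markers 1 was called higher after sound (*P2ry12*, a purine receptor) and 5 in naïve rats, with a mean level of 7.97 to 8.24 in WAR S and 7.80 to 7.82 in Wistar S, and 7.87 to 7.97 in WAR N, against 7.47 to 7.54 in Wistar N. Of 16 neuron markers 0 were called after sound (limma, 1 at an unadjusted p under 0.05), and 10 had a higher mean in WAR S. In naïve rats 7 were called lower and 0 higher, while 8 of the 16 had a higher mean in WAR N and the median difference was −0.01. Of 14 oligodendrocyte markers 0 were called after sound (0 unadjusted) and 1 in each direction in naïve rats, and of 10 choroid plexus and ependymal markers 0 in either (2 unadjusted in each). Of 8 red blood cell markers 1 had a higher mean in WAR S, the median difference was −0.52 and 5 had an unadjusted p under 0.05. Called lower were 1 after sound (*Hbb*, a globin gene, a call lost without Wistar S 1 or 2) and 2 in naïve rats. No list held a marker that sets the IC apart from neighbouring midbrain, and in bulk tissue fewer cells of a type cannot be told apart from less RNA per cell.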

How the data were processed

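RNA of the IC was hybridised to Affymetrix rat gene arrays, 15 in all (WAR S 5, Wistar S 2, WAR N 4 and Wistar N 4). On the log2 scale, the authors deposited RMA values, for which the background is corrected, the arrays are quantile normalised and the probes of a set are summarised. The sources used here give no version, and 0 columns were left unused. Of 29214 probe sets, 15310 carried 1 gene symbol in the platform annotation, 323 several and 13581 none. For each of 14506 genes the brightest probe set was kept, and 14480 gene IDs matched a rat table of GRCr8. Coordinates are given for RefSeq windows alone (GRCr8), as no source names the build of the array.

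Groups followed the labels. The methods give 7 stimulated WAR and 3 Wistar rats and the series design describes all rats as stimulated, which differs from the labels. A mean per group over all 15 arrays was fitted with limma 3.58.1 (R 4.3.3, lmFit and eBayes), with Benjamini-Hochberg adjustment over all genes and a threshold of 0.05. SAM, which the methods name, was not run. Exact permutation tests used 21 splits (5 against 2) and 70 splits (4 against 4), whose smallest p are 0.0476 and 0.0286. The fit and the correlations were tested on simulated data. Pearson and Spearman correlations were tested by exact permutation. All 10 genes were named, and of every other list up to 4 genes with the smallest p in the comparison discussed, plus the 3 most alike genes for each of *Fkbp5*, *Sgk1*, *Tsc22d3* and *Ddit4*. For *Mt1*, *Pik3r1*, *Il1r1*, *Txnip* and *Hsd11b1*, named by their p after sound, the naïve values were given too. The 10 genes and all 15 other lists were chosen with earlier results of these data known. Alternatives were the label set, replicate block, dim genes, all probe sets, cyclic loess, another variance model, array weights, the thresholds of the methods and leaving out each array. Label set as a block with Wistar N 4 moved to set 2, leaving out clustered pairs, and leaving out the 5 arrays highest in *Sgk1* from its likeness, were chosen after seeing the data. The number of arrays limits the precision, and signal over background was not analysed here.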

Additional observations from a re-analysis of the deposited data

Results flagged for a closer look

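Among 33 groups of 4 or 5 arrays tested for 11 genes (the 10 and *Pdk4*), 3 held an array far from the others, where about 1 in 20 groups would by chance. *Nr3c2* read 9.26 in WAR S 3, against 9.00 to 9.05 in the other WAR S arrays. *Fkbp5* read 8.59 in WAR S 2, against 8.29 to 8.30 in the others. Identical values among the remaining arrays, 3 in each of these genes, narrow their range. *Sgk1* read 11.34 in Wistar N 4, against 9.97 to 10.17 in the other Wistar N arrays, and *Ddit4* and *Nfkbia* were highest of their group in the same array (9.32 and 8.60).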

How the results depend on the processing

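After sound 0 of the 10 genes were called, and this became 1 with the compared groups alone in the model (*Cdkn1a*; 1.89% of all genes) and 4 with array weights (9.88%). In naïve rats 0 became 1 with label set as a block (*Zbtb16*; 22.0% of all genes), 3 within label set 2 (26.0%) and 3 with the block and Wistar N 4 moved to label set 2 (19.8%), namely *Nfkbia*, *Sgk1* and *Zbtb16* in both. The difference of the strain effects gave 0, but 1 with array weights (*Cdkn1a*), and 0 to 2 with 1 array left out, the 2 being without Wistar N 1. The mean strain effect gave 2, but 0 within label set 1, 0 at the methods' thresholds of a 2-fold change and an unadjusted p of 0.05, and 0 to 2 with 1 array left out, the 0 being without Wistar S 2. Replicate numbers did not pair the samples, as same-numbered arrays correlated at −0.05 and 0.03 after sound and from −0.31 to 0.06 in naïve rats. With the replicate number as a block the mean strain effect gave 1 (*Nfkbia*), *Sgk1* after sound was −0.017, *Ddit4* −0.015 and *Zbtb16* −0.083.

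Other differences changed sign, and none of them had passed. After sound they were *Ddit4* at −0.044 within label set 1 and −0.041 with Wistar N 4 moved, and *Zbtb16* at −0.21 with the label set block, −0.34 within label set 1, −0.11 with array weights and −0.20 with Wistar N 4 moved. In naïve rats within label set 1 *Nr3c1* was 0.15, *Sgk1* −0.48 and *Nfkbia* −0.072. Within label set 2 *Nr3c2* was −0.033, *Fkbp5* −0.059, *Tsc22d3* −0.075, *Ddit4* 0.27, *Klf9* −0.099 and *Cdkn1a* 0.10. With array weights *Fkbp5* was −0.035, *Tsc22d3* −0.075 and *Cdkn1a* 0.032, and with Wistar N 4 moved *Ddit4* was 0.092 and *Cdkn1a* 0.017. The cause of each was not tested. With 1 array left out, *Nr3c1* ranged from −0.070 to 0.00050 and *Zbtb16* from −0.14 to 0.15 after sound. In naïve rats *Nr3c1* ranged from −0.23 to 0.064, *Nr3c2* from −0.0045 to 0.11, *Fkbp5* from −0.054 to 0.13, *Tsc22d3* from −0.15 to 0.20, *Ddit4* from −0.14 to 0.15, *Klf9* from −0.039 to 0.10 and *Cdkn1a* from −0.074 to 0.051.

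The median r after sound was 0.19 with the strain means removed and 0.24 with those of strain and label set, and ranged from 0.32 to 0.47 with 1 array left out. In naïve rats it was −0.080 with those of strain and label set removed, and ranged from −0.0022 to 0.23. No gene had a second probe set, so that alternative could not be run. The likeness of *Nfkbia* to *Sgk1* (0.88) was −0.12 without the 5 arrays highest in *Sgk1*.

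Counts over all genes moved more. After sound they were 60, but 274 with the compared groups alone, 1433 with array weights, 100 with Wistar N 4 moved, 39 at the methods' thresholds, 16 with the replicate block and 14 within label set 1, and 7 to 50 with 1 array left out. In naïve rats they were 3037, but 879 with the compared groups alone, 217 within label set 1, 5355 over all probe sets, 4667 with array weights and 256 at the methods' thresholds, and 1987 (without Wistar N 3) to 5968 (without Wistar N 1) with 1 array left out. For the difference they were 15, and 0 (label set 1, or the replicate block) to 3353 (array weights). For the mean strain effect they were 1449, and 41 (methods' thresholds) to 4547 (array weights).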
